A study of Homo sapiens with 6 samples.

Results

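The 10 genes described here are the transcription factor gene ATF4, 3 stress genes that it induces (DDIT3, TRIB3 and CHAC1), asparagine synthetase (ASNS), the 3 enzymes of serine synthesis (PHGDH, PSAT1 and PSPH) and 2 enzymes of mitochondrial folate metabolism (SHMT2 and MTHFD2). They were taken by gene symbol from a table of 34114 genes, and all 10 were found and passed the filter on low values. The libraries formed 2 groups. NCAM1_knockdown libraries came from human acute myeloid leukemia cell lines given a short hairpin RNA (shRNA) against NCAM1, the gene of the adhesion molecule CD56, and control_shRNA libraries came from the same lines given a scrambled shRNA. The lines were MOLM-14 and NOMO-1, which both carry the KMT2A-MLLT3 fusion, and SKM-1, which was derived from leukemia after myelodysplasia. Cells were sampled at 72 h, with 1 library per line and condition, so 3 libraries per group and 6 in all. The labels do not say whether 1 hairpin sequence was used in all lines. The hairpin code in the deposited table has an extra letter for SKM-1 alone, the line in which NCAM1 was 124-fold lower. Each line stands as 1 culture.

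When amino acids run short, haem is lacking or unfolded protein gathers in the endoplasmic reticulum, kinases phosphorylate the translation factor eIF2. General translation then falls, while translation of ATF4 mRNA rises through upstream reading frames, so the ATF4 mRNA level alone does not show the amount of ATF4 protein. ATF4 binds C/EBP-ATF response elements, often with a C/EBP partner, and induces amino acid transporters, synthesis enzymes and genes of stress-induced death. Serine made by PHGDH, PSAT1 and PSPH feeds 1-carbon units through SHMT2 and MTHFD2 into nucleotide synthesis, a route on which proliferating cells draw.

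Gene-assigned reads numbered 43745763 to 47688779 in the knockdown libraries and 41916991 to 45542099 in the control libraries, which is deep enough that counting error is small for all but CHAC1 and DDIT3. Values below are normalized counts, which are reads per gene divided by the authors' size factor for the library. NCAM1 itself stood at 1896, 312 and 101 normalized counts in the knockdown libraries (MOLM-14, NOMO-1, SKM-1 in that order), against 6004, 1163 and 12537 in the control libraries. It was thus lower in the knockdown library of each line. Myeloid markers were present in all libraries, with 8 or 9 of 10 at 100 normalized counts or more, and CD14, a marker of mature monocytes, was at 3.13 to 27.4 in knockdown and 3.05 to 8.50 in control libraries. The myeloid markers summed to 36185 to 73100 in knockdown and 42055 to 765921 in control libraries. The highest sum, that of the SKM-1 control library, was mostly MPO, whose values are given below. Of 10 markers of other cell types, 0 to 1 reached 100 in a knockdown library and 0 to 2 in a control library, and their summed level was 132 to 1399 in knockdown and 180 to 887 in control libraries. Between 1 and 4 of those 10 markers were at 0 reads in each library, and EPCAM, an epithelial marker, had 1203 normalized counts in the SKM-1 knockdown library, against 549 in its control. The SKM-1 pair stood apart. The 2 myeloid markers that differed most there were picked after their values were seen. In SKM-1, MPO, myeloperoxidase, had 6166 normalized counts in the knockdown library, against 728824 in the control library. MPO was also lower in the knockdown library of NOMO-1, at 15869 against 53986, but higher in that of MOLM-14, at 3922 against 1398. ITGAM, the integrin CD11b, had 20862 in the SKM-1 knockdown library, against 1757 in its control. It was higher in the MOLM-14 knockdown library too, with 1144 against 651 in the control. In NOMO-1, however, it had 7007 in the knockdown library, against 10102 in the control. Other markers of the list were lower in the SKM-1 knockdown library, with 1764 against 3136 in the control for CD33, 1667 against 2673 for FCGR1A and 127 against 173 for CEBPA. The part of these differences in the values below was not tested. In bulk RNA, fewer cells of a type and less RNA per cell cannot be told apart.

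NCAM1 knockdown was set against the control in each line. ATF4, DDIT3, TRIB3, CHAC1 and MTHFD2 were lower in the knockdown library of every line. ASNS, PHGDH, PSAT1 and SHMT2 were lower in MOLM-14 and SKM-1 and higher in NOMO-1, from 2.87% for SHMT2 to 26.7% for ASNS. PSPH was 19.8% higher in NOMO-1, and within 6.39% of its control in the other lines. The median log2 ratio of knockdown over control over the 10 genes was -0.54 for MOLM-14, -0.022 for NOMO-1 and -0.54 for SKM-1, against 0, -0.00027 and -0.012 over the 19575 genes tested. The test across lines was limma on log2(normalized count + 1), blocked by cell line, and a gene was called at an adjusted p under 0.05. It called 0 of the 19575 genes (0%), and so 0 of the 10. Before adjustment, 877 genes had p under 0.05 in limma, and those that were lower made up 2.89% of all genes and included TRIB3 and MTHFD2. The quasi-likelihood test of edgeR likewise called none (0), and 863 genes had an unadjusted p under 0.05. DESeq2 called 43 genes, 0.22% of those tested, and 0 of the 10. NCAM1, the targeted gene, was not called by any of the 3 tests (adjusted p = 0.779 by limma, 0.824 by edgeR and 0.107 by DESeq2). The lack of a call therefore does not show that a gene was unchanged. The lower genes with an unadjusted p under 0.05 were 2.7% of all genes by edgeR and 3.54% by DESeq2, and TRIB3 and MTHFD2 were the 2 of the 10 among them in both. Since each line is a single culture, the p-values measure nothing within a line. They set the mean ratio against the spread between lines, which limma moderates by the spread of other genes. The limma SE can thus be far from a gene's own spread, as for DDIT3 (SD over lines 0.033, limma SE 0.21). Leaving out the SKM-1 pair moved the mean log2 ratio to -0.25 for PSAT1, -0.15 for PHGDH, -0.10 for SHMT2 and -0.78 for MTHFD2, and the median of the 10 to -0.21, against -0.45 over all 3 lines. Leaving out NOMO-1 moved the mean the other way, to -1.30 for PSAT1, -0.84 for PHGDH, -0.75 for SHMT2 and -0.46 for ASNS, and the median to -0.63. ASNS was at -0.013 without MOLM-14 and -0.10 without SKM-1.

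**Figure D1:**
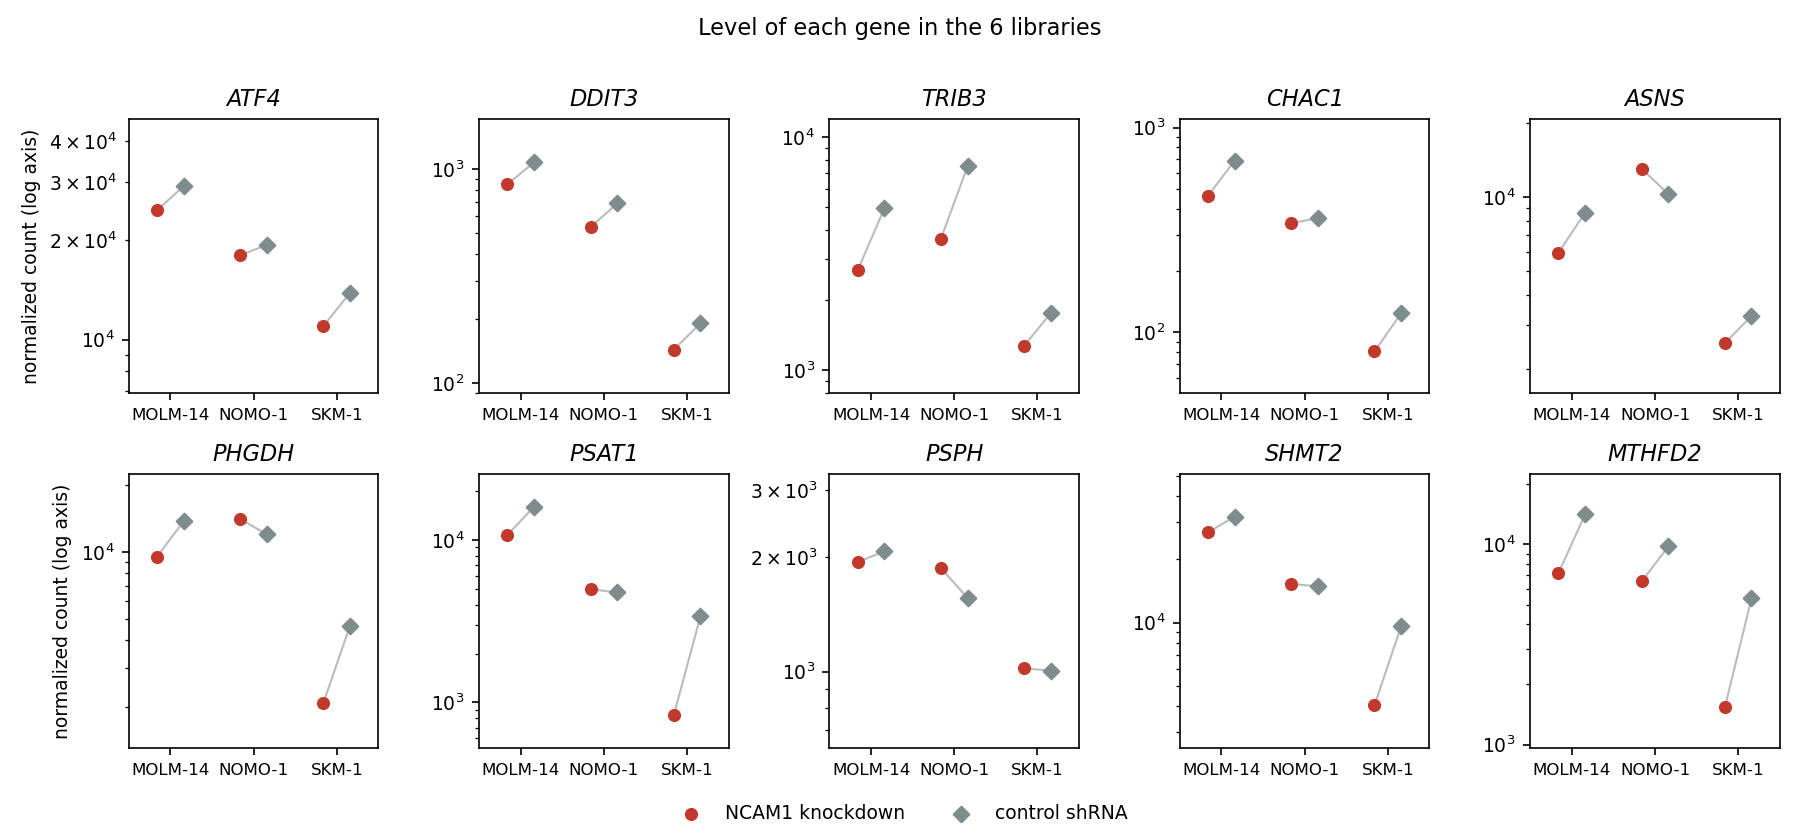
Normalized count (log axis, a separate scale in each panel) of each gene in the NCAM1 knockdown library (red circles) and the control shRNA library (grey diamonds) by cell line; a line joins the 2 libraries of a cell line, and there is 1 library per point. Both SKM-1 points lie below the 4 points of the other lines in every panel, and TRIB3 and MTHFD2 have the red circle below the grey diamond for each line.

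The transcription factor came first. ATF4 had 24645, 18016 and 10990 normalized counts in the knockdown libraries (MOLM-14, NOMO-1, SKM-1 in that order), against 29236, 19371 and 13865 in the control libraries. Each knockdown library was lower than the control of its own line, by 15.7%, 6.99% and 20.7%, although the 2 groups overlapped because the lines differ more from each other than that. The exact conditional 95% intervals of the ratio, which cover counting error only, were 0.828 to 0.858 for MOLM-14, 0.912 to 0.948 for NOMO-1 and 0.773 to 0.812 for SKM-1. Over the lines the mean log2 ratio was -0.23 ± 0.12 (SD, n = 3 lines; limma SE 0.15, adjusted p = 0.779). The exact two-sided sign-flip test over 3 lines cannot go below 0.25, and it gave 0.25 for ATF4 and for each of the other genes lower in all lines.

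DDIT3 encodes CHOP, a C/EBP-family factor that ATF4 induces and that promotes cell death under lasting stress. It had 848, 536 and 143 normalized counts in the knockdown libraries (MOLM-14, NOMO-1, SKM-1 in that order), against 1073, 690 and 190.0 in the control libraries. Its differences were the most even of the 10 genes, with log2 ratios of -0.34, -0.36 and -0.41 in turn and a mean of -0.37 ± 0.033 (SD, n = 3 lines; limma SE 0.21, adjusted p = 0.779). All 3 counting intervals lay below a ratio of 1, the widest being that of SKM-1, from 0.606 to 0.937. DDIT3 overlaps MARS and MBD6 on the opposite strand in the GRCh38 annotation, and the strand setting of the counting is not given, so its level is uncertain. The ratios of MARS were 0.793, 1.196 and 1.13 in the same order, and those of MBD6 were 0.902, 1.15 and 1.598, so DDIT3 was lower in NOMO-1 and SKM-1 where both neighbours were higher.

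TRIB3 encodes a pseudokinase that CHOP and ATF4 induce and that dampens AKT signalling and ATF4 activity. It stood at 2695, 3676 and 1276 normalized counts in the knockdown libraries (MOLM-14, NOMO-1, SKM-1 in that order), against 4957, 7511 and 1759 in the control libraries. The knockdown library was lower in every line, by 45.6% for MOLM-14, 51.1% for NOMO-1 and 27.4% for SKM-1. TRIB3 was the 1 gene of the 10 that lay furthest below its control in NOMO-1, and the 1 that was at least 2-fold lower there, where 5.66% of genes with 100 or more normalized counts in a library of the line were. The mean log2 ratio was -0.79 ± 0.29 (SD, n = 3 lines; limma SE 0.19, unadjusted p = 0.00992, adjusted p = 0.779).

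CHAC1 encodes a gamma-glutamylcyclotransferase that breaks down glutathione and is a sensitive readout of ATF4 and CHOP. It had the lowest counts of the 10 genes, at 466, 341 and 80.8 in the knockdown libraries (MOLM-14, NOMO-1, SKM-1 in that order), against 690.3, 362 and 124 in the control libraries. It was lower in MOLM-14 and SKM-1 beyond counting error, with ratios of 0.674 (0.596 to 0.763) and 0.652 (0.490 to 0.864). In NOMO-1 the ratio was 0.943 and its interval, 0.816 to 1.09, included 1, so a difference was not detectable at that depth. The mean log2 ratio was -0.42 ± 0.29 (SD, n = 3 lines; limma SE 0.25, adjusted p = 0.779).

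ASNS makes asparagine from aspartate and glutamine, and blasts with little of it depend on asparagine from outside. It had 5937, 13060 and 2539 normalized counts in the knockdown libraries (MOLM-14, NOMO-1, SKM-1 in that order), against 8651, 10304 and 3278 in the control libraries. The knockdown library was lower by 31.4% in MOLM-14 and 22.6% in SKM-1 but higher by 26.7% in NOMO-1, each beyond counting error. Over the lines its mean log2 ratio was -0.19 ± 0.47 (SD, n = 3 lines; limma SE 0.23, adjusted p = 0.826, exact sign-flip p = 0.5). The spread between lines was larger than the mean.

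ASNS and CHAC1 are shown by sequence because theirs are the 2 promoters among these genes that hold the core of the C/EBP-ATF response element (in NOMO-1 their ratios of knockdown over control were 1.27 for ASNS and 0.943 for CHAC1). The core searched was TGATGNAA on both strands, where N is any base, in RefSeq promoters (GRCh38.p14) that run from 250 bases before to 50 bases after a gene's start. Promoters were listed for 8 of the 10 genes, under 13 annotated starts, and not for PSPH and SHMT2. The core was found at 1 of 2 starts of ASNS, 68 bases before the start on the gene's own strand, and once in CHAC1, 209 bases before the start on the opposite strand. Over all 35116 listed promoters, 3.62% held it. Below are 120 bases around each match, 5′ to 3′ on the gene's strand, from chr7:97872413-97872532 (minus strand) for ASNS and chr15:40953221-40953340 (plus strand) for CHAC1, with the matched bases in capitals.
ASNS: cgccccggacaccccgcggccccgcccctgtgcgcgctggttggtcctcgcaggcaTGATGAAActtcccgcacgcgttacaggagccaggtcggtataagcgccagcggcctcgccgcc
CHAC1: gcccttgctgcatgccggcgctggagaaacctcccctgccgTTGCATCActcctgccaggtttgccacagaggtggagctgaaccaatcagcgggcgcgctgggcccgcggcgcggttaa
A match is a description of the letters and does not show binding, and the lack of one in the other promoters says only that these letters are not in those windows.

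Serine synthesis starts with PHGDH, phosphoglycerate dehydrogenase, which draws a glycolytic intermediate into the pathway. PHGDH had 9512, 14040 and 2093 normalized counts in the knockdown libraries (MOLM-14, NOMO-1, SKM-1 in that order), against 13718, 11967 and 4657 in the control libraries. It was lower by 30.7% in MOLM-14 and by 55.0% in SKM-1, and higher by 17.3% in NOMO-1. The mean log2 ratio was -0.48 ± 0.69 (SD, n = 3 lines; limma SE 0.30, adjusted p = 0.779). PSAT1, the aminotransferase of the second step, had 10761, 4984 and 835 normalized counts in the knockdown libraries, against 16048, 4754 and 3381 in the control libraries. Its SKM-1 difference, 4.05-fold, was the largest of any of the 10 genes in any line, while its ratio in NOMO-1 was 1.048 (1.009 to 1.090). The mean log2 ratio of PSAT1 was -0.84 ± 1.07 (SD, n = 3 lines; limma SE 0.42, adjusted p = 0.779).

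PSPH, the phosphatase that completes serine synthesis, departed from its 2 partners. It had 1941, 1870 and 1019 normalized counts in the knockdown libraries (MOLM-14, NOMO-1, SKM-1 in that order), against 2073, 1561 and 1006 in the control libraries. In SKM-1, where PHGDH and PSAT1 were 2.22-fold and 4.05-fold lower, the PSPH ratio was 1.01 (0.929 to 1.10), and in NOMO-1 it was 1.198 (1.122 to 1.279). The mean log2 ratio was 0.061 ± 0.18 (SD, n = 3 lines; limma SE 0.18, adjusted p = 0.929). PSPH has a near-identical copy, PSPHP1, which was at 477, 529 and 458 normalized counts in the knockdown libraries and at 499.6, 1139 and 561 in the control libraries, so reads may have been split between the pair and PSPH is uncertain. In NOMO-1 the copy was lower in the knockdown library, with a ratio of 0.465, while PSPH was higher.

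The mitochondrial folate enzymes take 1-carbon units from serine. SHMT2, which splits serine into glycine and a folate-bound 1-carbon unit, had 26845, 15279 and 4043 normalized counts in the knockdown libraries (MOLM-14, NOMO-1, SKM-1 in that order), against 31934, 14853 and 9599 in the control libraries. It was lower by 15.9% in MOLM-14 and 57.9% in SKM-1, and its ratio in NOMO-1 was 1.03 (1.006 to 1.051). The mean log2 ratio was -0.49 ± 0.68 (SD, n = 3 lines; limma SE 0.29, adjusted p = 0.779). MTHFD2, the dehydrogenase and cyclohydrolase of the next steps and an ATF4 target that is high in proliferating cells, had 7199, 6539 and 1534 normalized counts in the knockdown libraries, against 14126, 9774 and 5369 in the control libraries. It was 1.96-fold, 1.49-fold and 3.50-fold lower in the same order of lines. MTHFD2 had the lowest mean log2 ratio of the 10 genes, -1.1196 ± 0.63 (SD, n = 3 lines; limma SE 0.28, unadjusted p = 0.0106, adjusted p = 0.779). DESeq2 came closest to a call for this gene, with an adjusted p of 0.175, and for TRIB3, with 0.22.

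**Figure D2:**
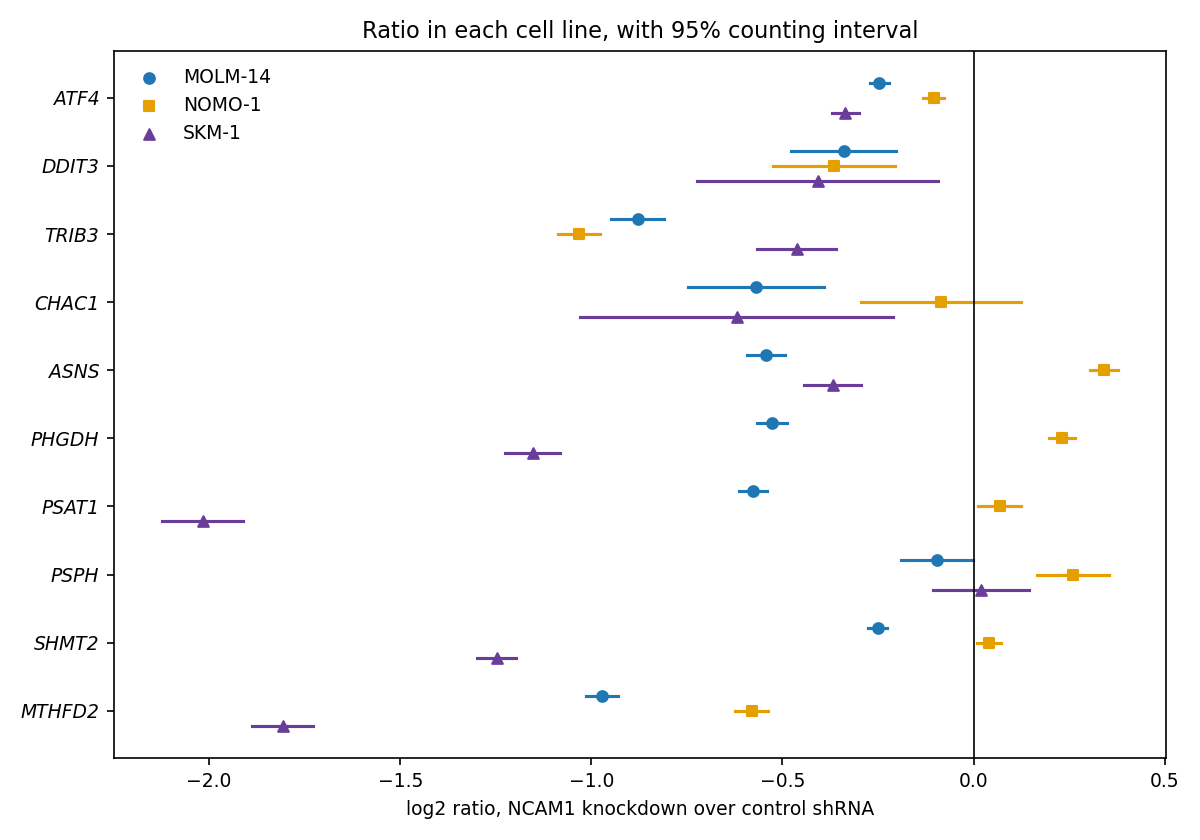
Log2 ratio of NCAM1 knockdown over control shRNA for each gene in MOLM-14 (circles), NOMO-1 (squares) and SKM-1 (triangles); bars are exact 95% intervals that cover counting error only, with 1 library per condition. ATF4, DDIT3, TRIB3 and MTHFD2 lie below 0 with their intervals in all 3 lines, and the NOMO-1 squares of ASNS, PHGDH, PSAT1, PSPH and SHMT2 lie above 0.

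The share of genes with each pattern gives the background. Of the 10 genes, 5 were lower in every line, against 15.9% of all genes tested, and 0 were higher in every line, against 14.6%. Over 2 lines alone, 9 of the 10 were lower in both MOLM-14 and SKM-1 (25.3% of all genes), and the same 5 in both NOMO-1 and SKM-1 (26.9%) and in both MOLM-14 and NOMO-1 (29.6%). Averaged over the lines, the log2 ratio was below 0 for 9 of the 10, as for 50.6% of all genes. Another 4 (ASNS, PHGDH, PSAT1 and SHMT2) were lower in MOLM-14 and SKM-1 and higher in NOMO-1, against 9.12% of all genes. The 10 genes were chosen with results of the same libraries known, so the counts are a description. The spread of the ratios over all genes differed between the lines, each with 1 library per condition. Among genes with 100 or more normalized counts in a library of the line, those at least 2-fold lower were 1.4% for MOLM-14, 5.66% for NOMO-1 and 14.9% for SKM-1. In SKM-1 4 of the 10 were at least 2-fold lower (PSAT1, MTHFD2, SHMT2 and PHGDH), in NOMO-1 TRIB3 alone, and in MOLM-14 none. At least 1.5-fold lower were MTHFD2 and TRIB3 in MOLM-14 (4.49% of genes), TRIB3 in NOMO-1 (14.2%) and 5 of the 10 in SKM-1 (26.3%), where CHAC1 joined. None of the 10 was 1.5-fold higher, as 2.71%, 8.56% and 23.4% of genes were in MOLM-14, NOMO-1 and SKM-1 in turn, or 2-fold higher, as 0.753%, 2.06% and 13.9% were. All 10 were lower in MOLM-14, where 50.1% of genes were, 5 in NOMO-1, where 50% were, and 9 in SKM-1, where 51.9% were. No gene of the 10 had its 3 knockdown libraries all below or all above its 3 control libraries, as 2.3% and 2.23% of genes did.

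**Figure D3:**
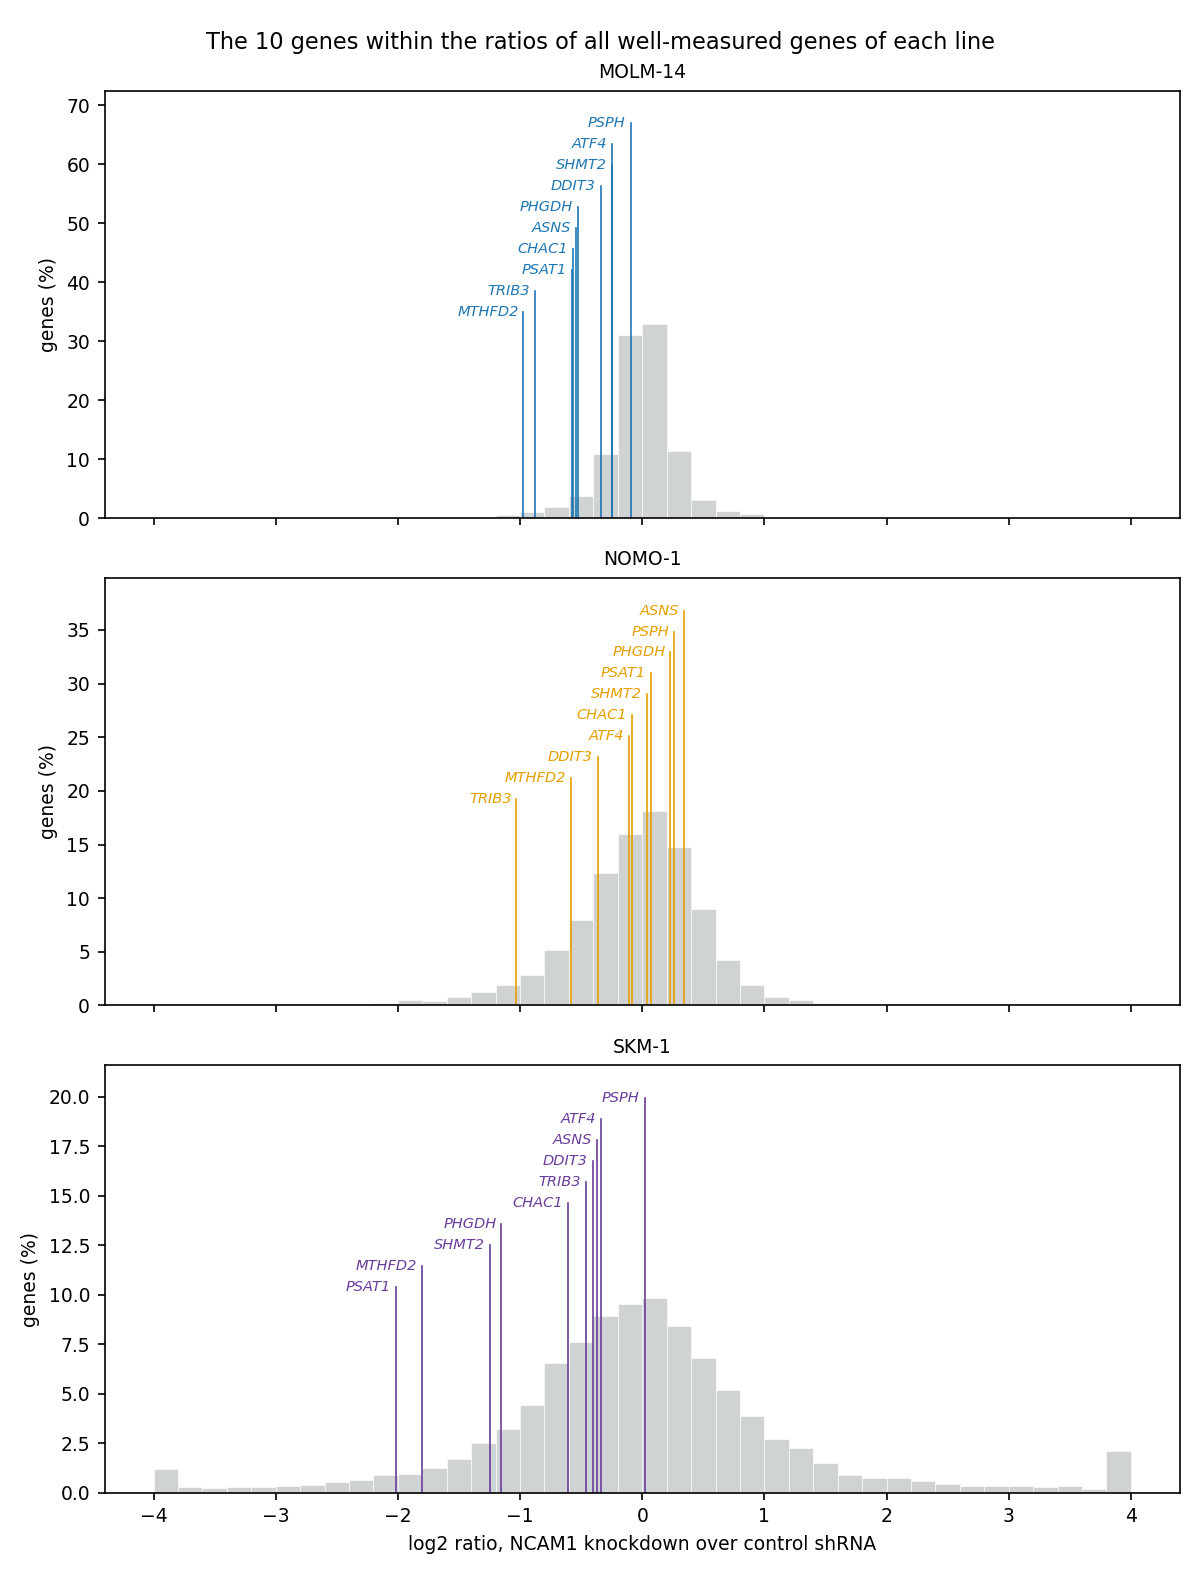
Log2 ratio of NCAM1 knockdown over control shRNA for all genes with 100 or more normalized counts in a library of the line (grey bars, percent of genes per bin of 0.2, with values beyond 4 in the outermost bins), and for the 10 genes (coloured lines, whose height has no meaning). The grey distribution widens from MOLM-14 to NOMO-1 to SKM-1; the 10 genes all lie at or left of -0.095 in MOLM-14 and on both sides of 0 in NOMO-1.

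As a share of reads, the 10 genes held 0.199% (exact Clopper-Pearson 95% interval 0.198% to 0.2003%), 0.189% (0.188% to 0.191%) and 0.0561% (0.0554% to 0.0568%) of gene-assigned reads in the 3 knockdown libraries, in the same order of lines. In the control libraries they held 0.262% (0.261% to 0.264%), 0.189% (0.187% to 0.190%) and 0.0974% (0.0965% to 0.0984%). Their summed share was thus lower in MOLM-14 and SKM-1 and within counting error in NOMO-1. The NOMO-1 balance had 2 parts. The 6 enzymes held 0.135% (0.134% to 0.136%) of reads in the knockdown library and 0.124% (0.123% to 0.125%) in the control, while the 4 stress genes held 0.0545% (0.0539% to 0.0552%) and 0.0649% (0.0642% to 0.0657%). Neither set moved evenly in NOMO-1. Of the enzymes, MTHFD2 had 7167 reads in the knockdown library, against 10348 in the control. Most of the stress gene difference was TRIB3, with 4029 against 7952. In SKM-1 the enzymes held 0.0276% (0.0271% to 0.0280%) of reads in the knockdown library, against 0.0615% (0.0608% to 0.0622%) in the control.

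Levels can be set side by side between genes only per length, here as normalized counts per kilobase of the longest annotated transcript. On this scale, averaged over the 6 libraries, ATF4 led at 9586, followed by SHMT2 at 5004, PSAT1 at 3105, ASNS at 3096 and PHGDH at 2934. MTHFD2 followed at 1666, TRIB3 at 1459, PSPH at 725, DDIT3 at 543 and CHAC1 at 186. ATF4 was above SHMT2, SHMT2 above PSAT1, PHGDH above MTHFD2, TRIB3 above PSPH and DDIT3 above CHAC1 in all 6 libraries. Some other pairs of genes crossed. In NOMO-1, ASNS was above SHMT2 in the knockdown library (5543 against 4473 per kilobase) and in the control library (4374 against 4348). TRIB3 was above MTHFD2 in 3 of 6 libraries, namely both of NOMO-1 and the knockdown library of SKM-1, and DDIT3 was above PSPH in the MOLM-14 control (1005 against 952). PSAT1, ASNS and PHGDH changed places between lines, with PSAT1 the highest of them in both MOLM-14 libraries and the lowest in both NOMO-1 libraries, so their order does not exceed the spread between libraries.

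The second comparison was between the cell lines, each with 2 libraries, 1 per condition. The spread behind these tests therefore holds any response that differs between lines, and each line is still 1 culture. A mean given for a line takes in both conditions. All 10 genes were lowest in SKM-1: both of its libraries lay below the 4 libraries of MOLM-14 and NOMO-1 for each of the 10, as for 15.7% of all genes tested. Against MOLM-14, 9 of the 10 were called lower in SKM-1 by limma at an adjusted p under 0.05 and at least 2-fold, where 7.79% of all genes were, and 0 were called higher, where 8.06% were. The median log2 difference of the 10 was -1.84, against 0.019 over all genes. The largest was that of PSAT1, whose mean was 2108 normalized counts in SKM-1, against 13405 in MOLM-14, a log2 difference of -2.97 (limma SE 0.52, adjusted p = 0.0267). DDIT3 averaged 167 in SKM-1, against 960 in MOLM-14 (-2.52, SE 0.25, limma adjusted p = 0.00717), and CHAC1 102, against 578 (-2.49, SE 0.31, limma adjusted p = 0.0117). SHMT2, PHGDH and MTHFD2 differed by -2.23, -1.87 and -1.81, and ASNS, TRIB3 and ATF4 by -1.31, -1.29 and -1.121, with limma adjusted p-values of 0.0208 to 0.0417. PSPH, at -0.99 (limma adjusted p = 0.04895), fell just short of 2-fold. The edgeR and DESeq2 tests called 9 as well, but limma called 3 without a variance trend, 4 with no filter on low values and 0 with the NOMO-1 libraries left out.

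Against NOMO-1, 5 of the 10 were called lower in SKM-1 by limma, where 7.78% of all genes were, and 0 were called higher, where 5.93% were. PHGDH averaged 3375 normalized counts in SKM-1, against 13004 in NOMO-1, a log2 difference of -2.05 (limma SE 0.36, adjusted p = 0.0285). ASNS averaged 2908 in SKM-1, against 11682 in NOMO-1 (-2.01, SE 0.28, limma adjusted p = 0.0153). DDIT3, TRIB3 and CHAC1 differed by -1.87, -1.81 and -1.80, with limma adjusted p-values of 0.0142, 0.0127 and 0.0268. ATF4 itself was at -0.598 and was not called (limma adjusted p = 0.0989), nor were PSAT1, MTHFD2, SHMT2 and PSPH, at -1.53, -1.48, -1.27 and -0.75. DESeq2 also called PSAT1, MTHFD2 and SHMT2, 8 in all, and limma called 3 with the MOLM-14 libraries left out.

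For the 10 genes, MOLM-14 and NOMO-1 were closer, with a median log2 difference of 0.43 for MOLM-14 over NOMO-1, against -0.010 over all genes. These 2 lines share a fusion, and any part of it in these levels was not tested. Of the 10 genes 0 were called between them by limma, where 5.26% of all genes were called higher in MOLM-14 and 8.01% lower. At an unadjusted p under 0.05 limma found 3 of the 10, all higher in MOLM-14, where 14.3% of all genes were higher and 16.6% lower at that threshold. These were PSAT1, with a mean of 13405 normalized counts in MOLM-14, against 4869 in NOMO-1 (log2 difference 1.43, unadjusted p = 0.0419, limma adjusted p = 0.145), SHMT2, with 29390 against 15066 (0.96, unadjusted p = 0.0438), and ATF4, with 26941 against 18694 (0.52, unadjusted p = 0.0347). The edgeR and DESeq2 tests called 0 too. ASNS, TRIB3 and PHGDH had the opposite sign, at -0.69, -0.52 and -0.18. With the SKM-1 libraries left out, limma called PSAT1 alone (adjusted p = 0.0148).

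**Figure D4:**
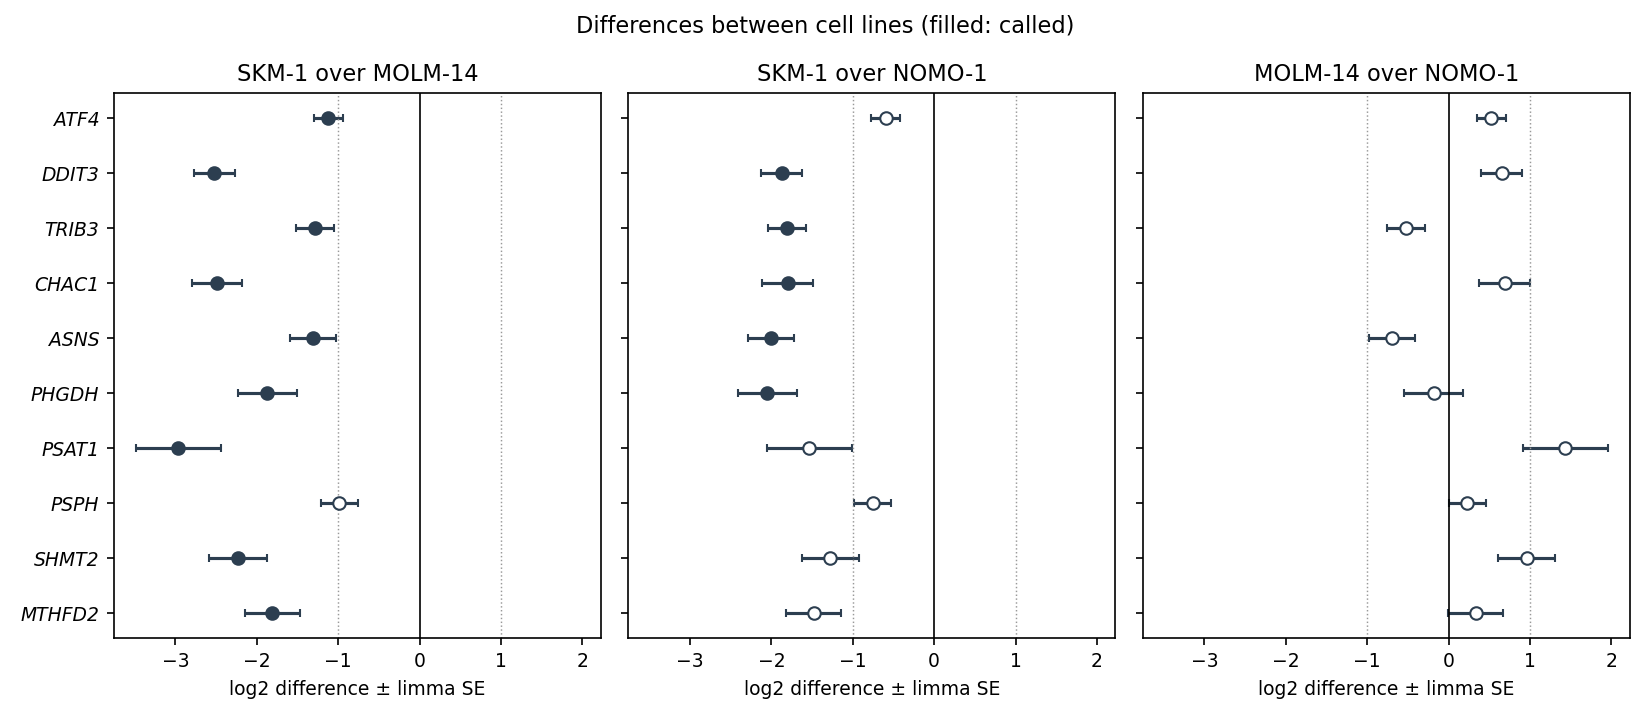
Log2 difference of each gene between cell lines in 3 contrasts, from the limma fit over 6 libraries with the condition as a term (2 libraries per line); bars are limma standard errors, dotted lines mark 2-fold, and filled points were called at an adjusted p under 0.05 and at least 2-fold. Of the 10 genes, 9 are filled in SKM-1 over MOLM-14, 5 in SKM-1 over NOMO-1 and 0 in MOLM-14 over NOMO-1.

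Other genes of the pathway were taken from lists of textbook members. The lists were chosen with earlier results of these data known, so their counts are a description. None of the lists had a gene called by limma. The list nearest to the 10 genes was that of other ATF4 targets: 16 of 19 tested members had a lower mean (50.6% of all genes), 8 were lower in every line (15.9% of all genes) and 0 higher in every line (14.6%), with a median log2 ratio of -0.52, against -0.0072 over all genes. By line the median was -0.44 for MOLM-14, -0.17 for NOMO-1 and -0.86 for SKM-1. VEGFA, a growth factor of blood vessels that both ATF4 and hypoxia induce, was at -0.87 ± 0.036 (SD, n = 3 lines), and is the 1 gene of these lists that DESeq2 called. ADM2, a peptide of the calcitonin family, was at -0.82 ± 0.43, and ATF3, a stress-induced partner of ATF4, at -0.62 ± 0.37. NUPR1, a small stress-induced chromatin protein, had only 37.6, 0 and 8.26 normalized counts in the knockdown libraries (MOLM-14, NOMO-1, SKM-1 in that order), against 78.1, 3.78 and 19.3 in the control libraries. ALDH1L2, a mitochondrial folate enzyme, had 8190, 9.12 and 176 normalized counts in the knockdown libraries, against 12275, 10.4 and 1896 in the control libraries, with the largest difference in SKM-1. VLDLR, a lipoprotein receptor, showed its largest difference in SKM-1 too, with 4318, 727 and 903 in the knockdown libraries and 5219, 1024 and 7089 in the control libraries.

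The genes upstream of ATF4 went both ways. Among 16 eIF2 kinases, eIF2B subunits and regulators, 1 was lower in every line (15.9% of all genes) and 6 were higher in every line (14.6%), with a median log2 ratio of 0.056. EIF2AK2 (PKR, the kinase that senses double-stranded RNA and is induced by interferon) was at 0.61 ± 0.32 (SD, n = 3 lines; limma unadjusted p = 0.0256, adjusted p = 0.779), and EIF2AK4 (GCN2, which senses uncharged tRNA) at 0.24 ± 0.072. IMPACT, an inhibitor of GCN2, was at 0.31 ± 0.23. PPP1R15A (GADD34), the stress-induced subunit that brings a phosphatase to eIF2, had log2 ratios of -0.55, -1.09 and 0.15 in the same order of lines, and its constitutive relative PPP1R15B had 0.014, -0.20 and 1.11.

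Amino acid transporters had 3 of 12 members lower in every line and 0 higher, against 15.9% and 14.6% of all genes, with medians of -0.35 for MOLM-14, 0.11 for NOMO-1 and 0.066 for SKM-1. SLC43A1, a carrier of branched-chain amino acids, was at -0.74 ± 0.65 (SD, n = 3 lines), the arginine and lysine carrier SLC7A1 at -0.30 ± 0.16, and SFXN1, the mitochondrial serine carrier, at -0.33 ± 0.35. SLC7A11, the cystine importer and an ATF4 target, went the other way in 2 lines, at a log2 ratio of -0.41 in MOLM-14 but 0.63 in NOMO-1 and 2.03 in SKM-1. SLC38A1, a glutamine carrier, had 9922 normalized counts in the SKM-1 knockdown library, against 470.4 in its control. Its log2 ratio was only -0.24 in MOLM-14 and 0.30 in NOMO-1. For aminoacyl-tRNA synthetases, 4 of 20 were lower and 3 higher in every line, near the shares of all genes (15.9% and 14.6%), with medians of -0.15, 0.25 and -0.065. AARS, for alanine, was at -0.32 ± 0.12, and RARS, for arginine, at 0.51 ± 0.18. FARSB and HARS were at 0.44 ± 0.37 and 0.27 ± 0.12, and FARSA and YARS at -0.27 ± 0.598 and -0.33 ± 0.53.

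Of the other serine, glycine and folate enzymes, 2 of 20 tested were lower and 3 higher in every line, near the 15.9% and 14.6% of all genes, with medians of 0.000041 for MOLM-14, 0.24 for NOMO-1 and -0.35 for SKM-1. MTHFD2L, a close relative of MTHFD2, was higher in each knockdown library, at 367, 1156 and 841 normalized counts in that order, against 304, 854 and 499 in the control libraries. MTHFD2L had a mean log2 ratio of 0.49 ± 0.24 (SD, n = 3 lines; limma unadjusted p = 0.0779, adjusted p = 0.779), the opposite sign to MTHFD2. ALDH1L1, a cytosolic folate dehydrogenase, had 2.09, 594 and 76.2 normalized counts in the knockdown libraries, against 1.115, 70.8 and 0 in the control libraries. MTR, methionine synthase, was at -0.33 ± 0.098, and TYMS, thymidylate synthase, at -0.35 ± 0.51. CBS, which turns homocysteine and serine into cystathionine, had log2 ratios of -0.25 in MOLM-14 and -1.40 in SKM-1, and in NOMO-1 it had 5.47 normalized counts in the knockdown library, against 1.89 in the control.

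Enzymes of other nonessential amino acids had 2 of 14 members lower and 2 higher in every line, near the 15.9% and 14.6% of all genes, with medians of 0.047 for MOLM-14, 0.33 for NOMO-1 and -0.54 for SKM-1. GLUL, glutamine synthetase, was at -0.87 ± 0.79 (SD, n = 3 lines). Of the arginine pair, ASL, argininosuccinate lyase, was at 0.59 ± 0.24, while ASS1, the synthase before it, had 487 normalized counts in the SKM-1 knockdown library, against 7101 in its control. In MOLM-14 the log2 ratio of ASS1 was -0.58, and in NOMO-1 it had 33.8 normalized counts in the knockdown library, against 28.3 in the control. Of 9 glutathione genes 0 were lower and 2 higher in every line, against the same 15.9% and 14.6%, with medians of 0.051, 0.17 and 0.61; GCLC and GCLM, the subunits of the rate-limiting ligase, were at 0.48 ± 0.36 and 0.66 ± 0.79. Glutathione reductase (GSR) was at 0.50 ± 0.795 and OPLAH, an oxoprolinase, at -0.40 ± 0.53. The other arms of the unfolded protein response, IRE1 and ATF6, had 4 of 18 members lower and 0 higher in every line, against 15.9% and 14.6%, with medians of 0.17 for MOLM-14, -0.20 for NOMO-1 and -0.33 for SKM-1. EDEM1 and SEL1L, of the degradation machinery, were at -0.46 ± 0.16 and -0.36 ± 0.16, XBP1 at -0.47 ± 0.41, and the chaperones CALR, PDIA4 and PDIA6 at -0.52 ± 1.37, -0.49 ± 0.87 and -0.42 ± 0.56.

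**Figure D5:**
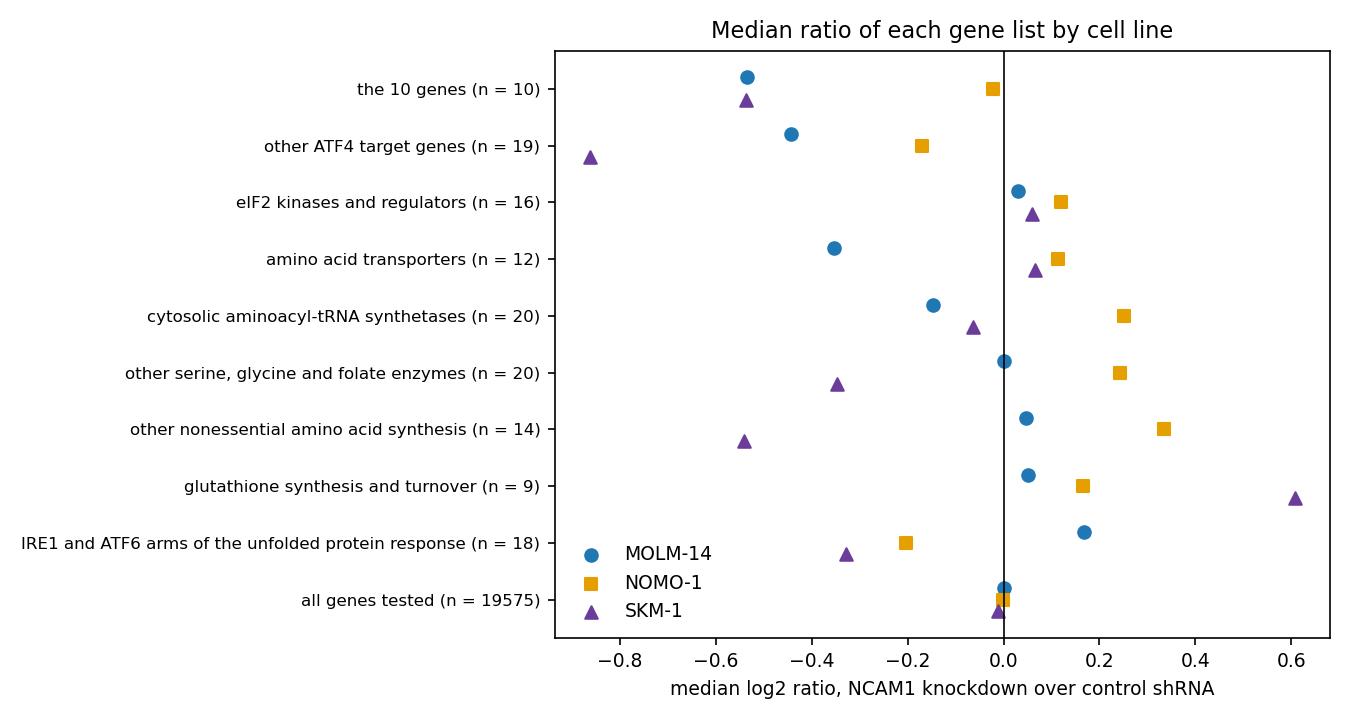
Median log2 ratio of NCAM1 knockdown over control shRNA for the 10 genes, 8 related lists and all genes tested, in MOLM-14 (circles), NOMO-1 (squares) and SKM-1 (triangles), with the number of tested genes in brackets. The 10 genes and the other ATF4 targets lie left of 0 in each line, the 10 genes only barely in NOMO-1 (-0.022), and the eIF2 list lies right of 0.

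Likeness of pattern was described by the root mean square difference between log2 profiles over the 6 libraries, each centred on its own mean, among 13619 genes. The 3 nearest to ATF4 were SLC35A3 at 0.055, APPL2 at 0.072 and AC013394.2 at 0.078. ELK1, TPPP and AP001056.1 were nearest to ASNS, at 0.21, 0.21 and 0.22, and NUDT14, C6orf164 and N6AMT2 to PHGDH, at 0.14, 0.21 and 0.25. The nearest of the 10 genes to ATF4 was PSPH, at rank 153 with 0.19, while ASNS and PHGDH were each other's nearest at 0.34, at ranks 43 and 29. With 6 libraries from 3 lines, such distances describe these libraries alone.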

How the data were processed

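Messenger RNA libraries (Illumina TruSeq RNA v2, paired-end Illumina sequencing, per the labels and design text) gave 1 library per cell line and condition. The authors deposited a signal table, in which each library's reads per gene are scaled by a single factor, and a log2 table, a transformation that the labels do not name. The submitters' processing notes list the tools DESeq2 1.12.4, HTSeq 0.6.1p1, STAR and bcl2fastq 1.8.4, with the build hg19. Annotation and strand setting: not given in the sources used here.

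Each column was whole multiples of 1 step, from which whole reads were recovered (100% of values within 0.001) together with each library's depth (41916991 to 47688779 reads). The 19575 genes averaging at least 10 normalized counts were tested with limma 3.58.1 in R 4.3.3 on log2(normalized count + 1), two-sided, with variance trend, the cell line as a block and Benjamini-Hochberg adjustment. This scale understates the change of low genes. Libraries were paired by cell line; the 2 libraries of a line deviated together from their group means, with r = 0.850 in MOLM-14, r = 0.863 in NOMO-1 and r = 0.710 in SKM-1. The fit had 2 residual and 2.81 prior degrees of freedom. Single-line intervals are exact, conditional and cover counting error only. edgeR 4.0.16 and DESeq2 1.42.0 on recovered reads were alternatives, as were other pseudocounts (0.5 and 8), filters (none and 50), scalings, the authors' log2 values, no block, no trend and each line left out. The limma and edgeR tests of knockdown were tried on simulated counts. A changed gene moved alike in all lines there, unlike several of the 10 genes here. Promoters came from RefSeq (GRCh38.p14) and transcript lengths from a GRCh38 annotation, a build other than that of the files.

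The members and lists were chosen with earlier results of these data known. Named besides the 10 genes and NCAM1 were, per pathway list, up to 4 genes by smallest p and up to 2 by largest single-line difference with 100 or more normalized counts in 1 library, and the 3 genes nearest in pattern to ATF4, ASNS and PHGDH with a mean of 50 or more, pseudogenes left out; the markers CD14, EPCAM, MPO, ITGAM, CD33, FCGR1A and CEBPA were named after their values were seen. A gene that this rule names is not reported here. MARS, MBD6 and PSPHP1 were added as neighbours or copies. The marker lists held 10 myeloid genes and 10 measured genes of other cell types.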

Additional observations from a re-analysis of the deposited data

Results flagged for a closer look

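In 5 of the 10 genes NOMO-1 went against at least 1 other line beyond counting error, with a higher level in its knockdown library. The log2 ratio of knockdown over control in NOMO-1 was 0.34 for ASNS, 0.23 for PHGDH, 0.068 for PSAT1 and 0.041 for SHMT2, all of which were lower in the knockdown libraries of MOLM-14 and SKM-1. It was 0.26 for PSPH, which was lower in that of MOLM-14. The difference between lines was not tested, since each line has 1 library per condition.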

How the results depend on the processing

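The median log2 ratio of the 10 genes stayed below 0 under all 15 alternatives, from -0.63 without NOMO-1 to -0.21 without SKM-1, and 0 of the 10 were called in any of them. Without the cell-line block limma called 0 genes and the median stayed at -0.45. DESeq2 called 43 genes, against 0 by limma. Of single genes, PSPH turned to -0.038 without NOMO-1 (0.14 without MOLM-14) and the other 9 kept a mean below 0 throughout; the unadjusted p ran from 0.00177 to 0.268 for TRIB3 and from 0.00116 to 0.155 for MTHFD2. Of the 10 genes, 5 were lower in every line (15.9% of all genes), 9 in both lines without NOMO-1 (25.3%), and 5 without MOLM-14 (26.9%) or SKM-1 (29.6%). The line contrasts were less stable. The 9 calls of SKM-1 over MOLM-14 became 3 without a trend, 4 with no filter (more genes are then adjusted over) and 0 without NOMO-1. The 5 of SKM-1 over NOMO-1 became 8 by DESeq2 and 3 without MOLM-14, and the 0 of MOLM-14 over NOMO-1 became 1 without SKM-1. Apart from leaving out samples and the filter, the cause was not tested. Depth limits CHAC1 and DDIT3 in SKM-1, with 88 and 156 reads in the knockdown library and 122 and 187 in the control.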
